A study of Homo sapiens with 6 samples.

Results

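The genes described here are 10 components of cytokine signalling through gp130: the ligands IL11 and LIF, the receptor chains IL11RA, IL6R, IL6ST, LIFR and OSMR, the kinase JAK1, the transcription factor STAT3 and the inhibitor SOCS3. They were chosen by name, as the rows whose Ensembl gene ID carries one of these symbols, and all 10 were found among the 60240 genes of the deposited table. Both groups were cultures of HepG2, an established human liver cancer line. The GDF11 group (n = 3) received 100 ng/ml of recombinant GDF11, a secreted ligand of the TGF-beta family, for 24 h. The control group (n = 3) carries the label control, with no vehicle and no culture time named. No genetic change was labelled in either group, and all cultures came from 1 cell line. The labels speak of biological replicates without saying how cultures were separated. The p-values therefore weigh each difference against the spread between these libraries, with variances partly borrowed from other genes. The comparison asks how GDF11 altered transcript levels of these genes in liver-derived cancer cells.

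Cytokines of the IL-6 family bind a receptor chain of their own and then engage gp130, the shared signalling chain encoded by IL6ST. IL11 acts through IL11RA and gp130, IL-6 through IL6R and gp130, and LIF through a pair of LIFR and gp130, while oncostatin M can use OSMR with gp130. The Janus kinase JAK1, bound to gp130, phosphorylates STAT3, which moves to the nucleus. SOCS3 is a feedback inhibitor that binds gp130 and JAK1. In hepatocytes the pathway is best known for driving the acute-phase genes, such as those of fibrinogen.

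Of the 10 members, IL11, LIF, JAK1 and SOCS3 were higher and LIFR was lower in GDF11-treated cells than in control cells. IL11 changed most, to about 20.2 times the control reads, while SOCS3, LIF and JAK1 were at 2.78, 2.33 and 2.01 times. LIFR was 2.04 times higher in control cells, where control 3 had the highest value. Its call lay near the threshold and was lost in 7 of 19 alternative settings of the fit. IL11RA, IL6R, IL6ST, OSMR and STAT3 did not pass the test. A gene was called when its p from limma, adjusted by the Benjamini-Hochberg method over the 18723 genes tested, was under 0.05. By that rule 11.7% of all tested genes were called higher and 10.8% lower, and the members' counts of 4 and 1 are to be read against those shares. The median difference over the 10 members was 0.38, against 0.0056 over all tested genes. The members were chosen with earlier results of these data known, so these counts and medians are not an independent comparison.

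Values are given on the deposited log2 scale, which was made with a variance-stabilising transformation and compresses changes of low genes. It keeps 0.472 of a log2 change at a value of 7, 0.696 at 8, 0.914 at 10 and 0.978 at 12. The lowest value in the table, 5.52, stands for a gene without reads. Normalised reads were therefore also computed by inverting that scale, and folds in reads come from group means of those. In bulk RNA, fewer cells of a type and less RNA per cell cannot be told apart.

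The third control library stood apart from the other two controls. On the first principal component of the 1000 most variable genes the GDF11 libraries lay between 27.3 and 28.6, and the controls at -29.8, -31.7 and, for control 3, -21.6. Relative to the mean of controls 1 and 2, the genes of control 3 had a median of 0.17 among genes with the lowest GC content and -0.30 among those with the highest, when the tested genes were divided into 5 groups of equal size. RNA integrity numbers were 9.4 to 9.6 in the GDF11 libraries and 9.6 to 9.9 in the controls, with the lowest control value in control 3. These values move with several members, and their part in the results was not tested. Without control 3, 19.5% of all tested genes were called higher and 21.3% lower, and of the members 7 were called higher and 1 lower. As a check of the treatment, the TGF-beta family targets SMAD7, PMEPA1 and SKIL were higher with GDF11, by 2.10, 2.61 and 3.06 on the log2 scale.

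**Figure D1:**
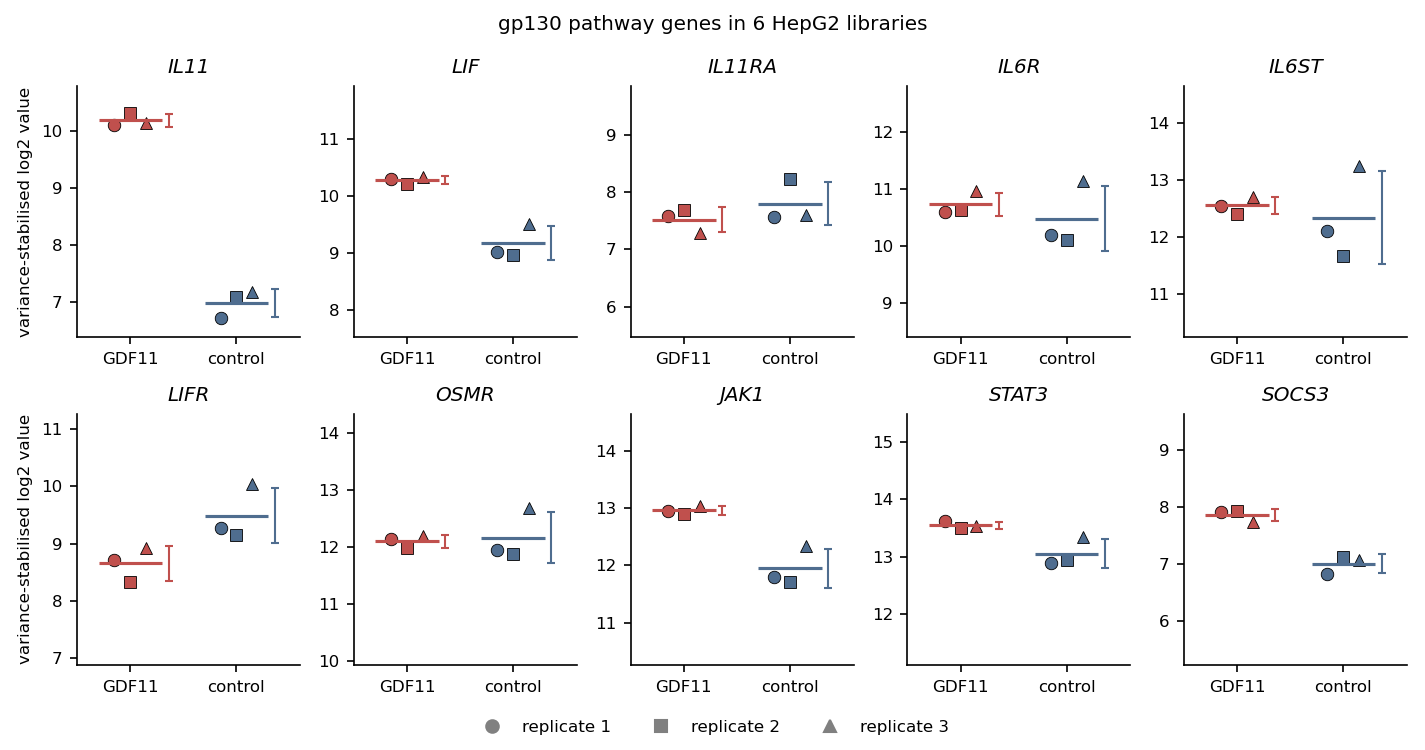
Deposited log2 values of the 10 members in every library, with GDF11 libraries left of control libraries in each panel, bars marking group means and error bars 1 SD (n = 3 each). IL11 lies between 10.11 and 10.32 in the GDF11 libraries and between 6.72 and 7.18 in the controls, and control 3 is the highest control for 8 of the members.

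**Figure D2:**
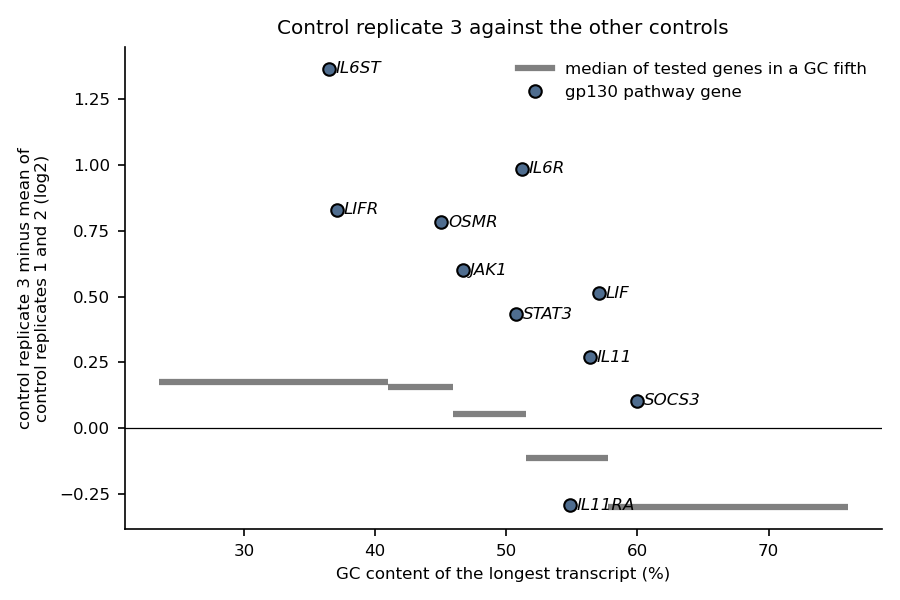
Difference of control 3 from the mean of controls 1 and 2 (log2 scale, vertical axis) against GC content of the longest transcript (percent, horizontal axis), with the median of each of 5 equal groups of the tested genes and the 10 members as points. The medians run from 0.17 at the lowest GC content to -0.30 at the highest, and IL6ST, with a GC content of 36.5%, lies at 1.36.

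The proximal promoters of IL11 and SOCS3, both higher with GDF11, and of LIFR, which was lower, are shown here so that the motifs linked to the factors of this pathway can be read in place. RefSeq windows of 300 bases (GRCh38.p14), with 250 bases before the start site and 50 from it on, matched 9 of the 10 members. Capitals mark matches on either strand to the STAT site TTCNNNGAA, the AP-1 site TGANTCA and the SMAD box CAGAC, which reads GTCTG on the other strand. The IL11 window is chr19:55370414-55370713, the SOCS3 window chr17:78360876-78361175 and the LIFR window chr5:38595356-38595655, all on the minus strand.
IL11: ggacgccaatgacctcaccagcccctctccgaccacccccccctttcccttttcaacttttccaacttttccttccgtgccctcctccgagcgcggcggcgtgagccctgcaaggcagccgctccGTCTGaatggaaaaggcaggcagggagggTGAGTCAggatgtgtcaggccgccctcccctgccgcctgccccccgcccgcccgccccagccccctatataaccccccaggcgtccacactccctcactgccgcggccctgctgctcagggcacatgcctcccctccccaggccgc
SOCS3: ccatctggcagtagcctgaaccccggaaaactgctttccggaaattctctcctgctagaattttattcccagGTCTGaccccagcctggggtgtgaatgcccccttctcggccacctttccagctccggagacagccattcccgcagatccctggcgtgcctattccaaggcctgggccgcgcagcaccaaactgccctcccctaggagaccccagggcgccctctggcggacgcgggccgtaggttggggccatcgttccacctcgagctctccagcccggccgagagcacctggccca
LIFR: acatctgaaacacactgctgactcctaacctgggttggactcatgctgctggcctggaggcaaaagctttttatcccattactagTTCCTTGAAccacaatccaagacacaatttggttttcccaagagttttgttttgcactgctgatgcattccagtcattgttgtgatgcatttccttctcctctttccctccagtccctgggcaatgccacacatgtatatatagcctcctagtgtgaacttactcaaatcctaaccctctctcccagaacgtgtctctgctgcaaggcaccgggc

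The IL11 window held 1 AP-1 site at position -96 from the start site and 1 SMAD box at -125, each given by its first base. The SOCS3 window held 1 SMAD box at -178. The LIFR window held 1 STAT site at -165. A second annotated LIFR window held a STAT site at -182 and SMAD boxes at -85, -51 and 35. A further LIFR window, chr5:38556597-38556896, and a further SOCS3 window, chr17:78359618-78359917, held none of the motifs. Among 35116 windows of the same length, 7.66% held the STAT site, 7.71% the AP-1 site and 45.3% the SMAD box. Within the other members' windows, AP-1 sites were found for IL6R and OSMR and SMAD boxes for STAT3 and IL11RA, and JAK1 and IL6ST held none of the motifs. These matches describe letters in the windows and not binding.

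IL11 (ENSG00000095752.7, chr19:55364382-55370463 in GRCh38) encodes interleukin-11, known for actions on platelet precursors, stroma and fibroblasts. The GDF11 libraries held 10.11, 10.32 and 10.14, against 6.72, 7.09 and 7.18 in the control libraries. Every GDF11 library was far above every control library. In normalised reads these were 1012, 1185 and 1042 with GDF11, against 33.5, 59.9 and 67.3 in controls. The difference was 3.19 ± 0.17 (SE; 95% confidence interval 2.82 to 3.57), with an adjusted p of 8.26e-06 by limma. The call held in all 19 alternative settings, with differences of 3.06 to 4.38 and a highest adjusted p of 0.000476.

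LIF (ENSG00000128342.5, chr22:30240453-30246759) encodes leukaemia inhibitory factor, the ligand that pairs LIFR with gp130. Its values were 10.30, 10.21 and 10.33 in the GDF11 libraries and 9.03, 8.97 and 9.51 in the controls. The groups did not overlap, with control 3 the highest control. In reads it stood at 1171, 1095 and 1201 with GDF11, against 433, 415 and 641 in controls. LIF differed by 1.11 ± 0.18 (SE; adjusted p = 0.00263), and by 1.28 without control 3. With RNA integrity as a covariate the difference was 0.75 with an adjusted p of 0.0618, which ended the call. Exons of LIF overlap the antisense genes LIF-AS1 and LIF-AS2 by 86 and 83 bases, and both lay at or below 6.49 in every library.

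Among the 9 other ligands and soluble partners of the family, 6 were tested, 2 were higher and 4 were not called. By limma's unadjusted p under 0.05 the counts were 2 higher and 0 lower. All tested genes gave 11.7% called higher and 10.8% lower, and 18.5% higher and 18.7% lower at that unadjusted p. CLCF1, a ligand that acts through CNTFR, averaged 6.95 ± 0.10 in GDF11 libraries and 6.32 ± 0.23 in controls (SD, n = 3 each), a difference of 0.64 ± 0.14 (SE; adjusted p = 0.0112). IL27, the cytokine subunit that pairs with EBI3, was higher by 0.59 ± 0.16 (adjusted p = 0.0328), a call that ended without control 3 (0.46, adjusted p = 0.0518), control 1 (adjusted p = 0.101), GDF11 replicate 2 (0.0966) or 3 (0.0637), after quantile normalisation (0.0544) and with RNA integrity as a covariate (0.0732). With that covariate the CLCF1 call ended too, at 0.46 and an adjusted p of 0.235. IL6 and IL31 were at the lowest value in all 6 libraries. OSM, the ligand oncostatin M, was at the lowest value in 1 GDF11 library and in all 3 controls and below the filter on low values.

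LIFR (ENSG00000113594.10, chr5:38474668-38608403) encodes the signalling chain that LIF and oncostatin M share with gp130. It had values of 8.72, 8.33 and 8.93 in the GDF11 libraries and 9.27, 9.15 and 10.04 in the controls. The groups did not overlap, and control 3 was the highest library. Its reads were 334, 236 and 400 with GDF11, against 531, 481 and 964 in controls. LIFR differed by -0.83 ± 0.26 (SE; 95% confidence interval -1.42 to -0.25; adjusted p = 0.0479). The call lay near the threshold: it was lost without GDF11 replicate 1 (-0.86, adjusted p = 0.104), 2 (-0.67, 0.145) or 3 (-0.97, 0.062), without control replicate 1 (-0.94, 0.0856), with no filter on low values (adjusted p = 0.0521) and without a mean trend in the variance prior (0.0507). It was kept without control 3 at -0.56 (adjusted p = 0.0457). With RNA integrity as a covariate the value was -1.49 (adjusted p = 0.0162). Exons of LIFR overlap LIFR-AS1 on the other strand by 629 bases, and that gene read 6.14 to 6.45 with GDF11 and 6.45 to 6.49 in controls.

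IL6ST (ENSG00000134352.20, chr5:55935095-55994963) encodes gp130 itself. It had 12.55, 12.40 and 12.71 in GDF11 libraries, against 12.10, 11.67 and 13.25 in controls. Control 3 was above every GDF11 library and the other controls below, so the groups overlapped. The difference was 0.22 ± 0.35 (95% confidence interval -0.57 to 1.00; adjusted p = 0.685). Without control 3, in which IL6ST was 1.36 above the other controls, it was 0.67 ± 0.16 (adjusted p = 0.0102), and without control 2 it was -0.12. The value with RNA integrity as a covariate was -0.84.

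IL6R (ENSG00000160712.13, chr1:154405343-154469450), the binding chain for IL-6, read 10.60, 10.64 and 10.97 with GDF11 and 10.19, 10.10 and 11.13 in controls. Here too control 3 was the highest of all libraries. The difference was 0.26 ± 0.27 (95% confidence interval -0.35 to 0.86; adjusted p = 0.520), and 0.59 ± 0.15 without control 3 (adjusted p = 0.0135). The library weights gave 0.42 (adjusted p = 0.0456) and the integrity covariate -0.56.

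IL11RA (ENSG00000137070.18, chr9:34652185-34661902), the binding chain for IL11, was at 7.58, 7.70 and 7.29 in GDF11 libraries and at 7.56, 8.24 and 7.61 in controls. The groups overlapped, and control 2 was the highest library. IL11RA differed by -0.28 ± 0.21 (95% confidence interval -0.75 to 0.19; adjusted p = 0.359). Its exons overlap ENSG00000258728 on the same strand by 1706 bases, a gene at the lowest value in 5 of 6 libraries. OSMR (ENSG00000145623.13, chr5:38846012-38945579), the oncostatin M receptor chain, was at 12.15, 11.98 and 12.20 with GDF11 and 11.94, 11.88 and 12.69 in controls. Its groups overlapped, and the difference was -0.06 ± 0.22 (95% confidence interval -0.57 to 0.44; adjusted p = 0.866). For IL11RA, IL6R, IL6ST and OSMR the intervals include 0 and also changes of over 0.4 in at least 1 direction, so the test does not show that they were alike. With RNA integrity as a covariate the differences were 0.17 for IL11RA, -0.56 for IL6R, -0.84 for IL6ST and -0.62 for OSMR, none of them called. Of the 5 other receptor chains of the family, 3 were tested and none was called by limma. At an unadjusted p under 0.05, 1 was higher (IL31RA at 0.31), against 18.5% of all tested genes. CNTFR was at the lowest value in all 6 libraries.

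JAK1 (ENSG00000162434.13, chr1:64833229-65067746), the kinase bound to the gp130 chain, had values of 12.96, 12.89 and 13.05 in GDF11 libraries, against 11.79, 11.70 and 12.35 in controls. All GDF11 libraries lay above all controls, and control 3 was the highest control. In reads JAK1 stood at 7882, 7520 and 8383 with GDF11 and at 3460, 3245 and 5121 in controls. The difference was 1.02 ± 0.19 (SE; 95% confidence interval 0.59 to 1.45; adjusted p = 0.00592), and 1.22 without control 3. With RNA integrity as a covariate it was 0.57 with an adjusted p of 0.118, which ended the call. Exons of JAK1 overlap LINC01359 on the same strand by 647 bases, and that gene read 5.69 to 6.08 with GDF11 and 5.70 to 5.85 in controls. They also overlap RP4-535B20.1 on the same strand by 309 bases, a gene for which no value was obtained. RAVER2 overlaps them on the other strand by 10 bases. Since the strand setting of the counting is not known, the split of reads in all these overlaps is uncertain, also for IL6ST with ENSG00000262211 (797 bases) and OSMR with RICTOR (229 bases).

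STAT3 (ENSG00000168610.14, chr17:42313324-42388442), the transcription factor of the pathway, read 13.62, 13.50 and 13.53 in GDF11 libraries and 12.88, 12.94 and 13.34 in controls. The groups did not overlap, as held for 5 members on the higher side and 1 on the lower side, against 20.9% and 19.6% of all tested genes. The difference of 0.50 ± 0.17 (95% confidence interval 0.12 to 0.88) did not pass, with an adjusted p of 0.0632. Without control 3 it was 0.64 with an adjusted p of 0.00217, with library weights 0.65 (0.000927) and after quantile normalisation 0.64 (0.040). It also passed without a mean trend in the variance prior (0.0479). With RNA integrity as a covariate the difference was 0.26 (adjusted p = 0.507), and without any 1 of the GDF11 libraries, control 1 or control 2 it was 0.41 to 0.52 (adjusted p of 0.149 to 0.207). The mean in reads was 1.40 times the control mean.

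SOCS3 (ENSG00000184557.4, chr17:78356778-78360925), the feedback inhibitor, had 7.90, 7.92 and 7.74 in GDF11 libraries, against 6.82, 7.12 and 7.08 in controls. The lowest GDF11 library was above the highest control. Reads were 157, 160 and 132 with GDF11, against 39.7, 62.8 and 58.7 in controls. SOCS3 differed by 0.85 ± 0.14 (SE; 95% confidence interval 0.54 to 1.16; adjusted p = 0.00285). The call held in all 19 alternatives, with a highest adjusted p of 0.0343, and on a log2 scale of reads plus 1 the difference was 1.48.

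**Figure D3:**
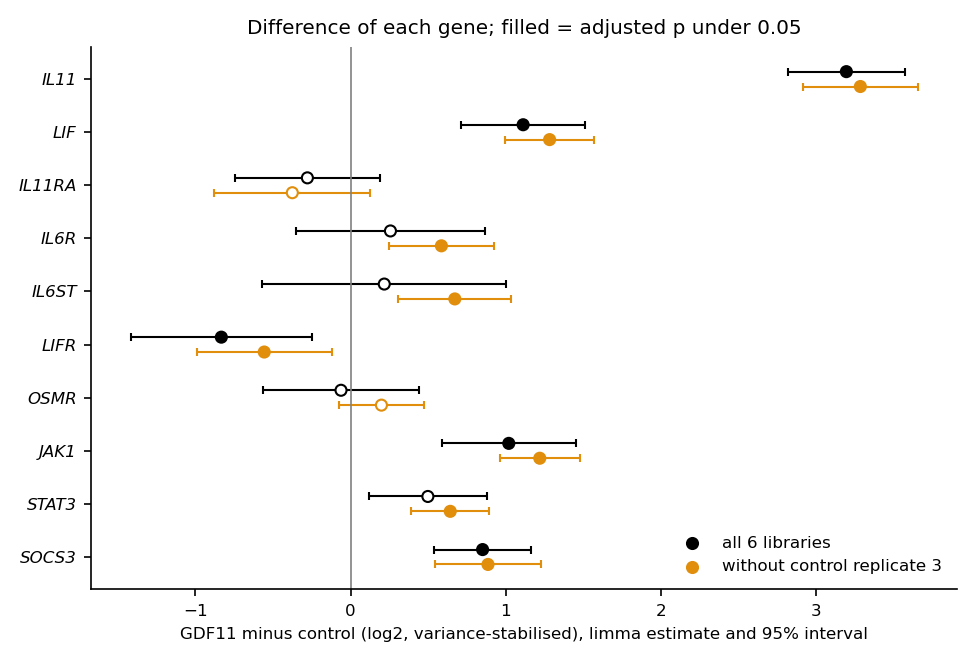
Difference of each member, GDF11 minus control, on the deposited log2 scale with 95% confidence intervals from all 6 libraries, beside the difference without control 3. IL11 lies at 3.19 and LIFR at -0.83, and IL6ST lies at 0.22 with all libraries and at 0.67 without control 3.

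**Figure D4:**
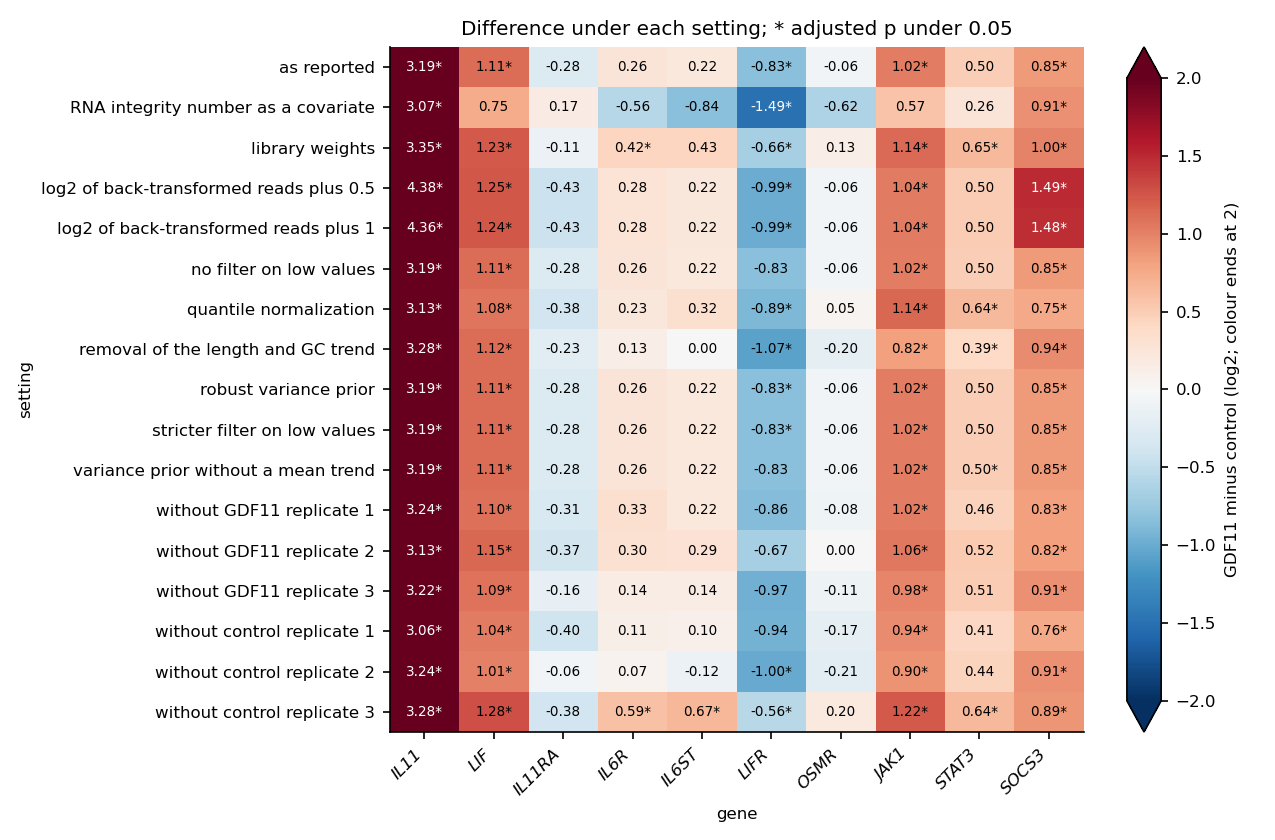
Differences of the 10 members, GDF11 minus control, on the scale of each setting, with called and not called values marked. The alternative settings are shown except the replicate block and the other thresholds of the adjusted p. IL11 runs from 3.06 to 4.38 and was called throughout, and IL6ST runs across 0.

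The 15 other kinases, STATs and adaptors of the pathway gave 14 tested genes, of which 3 were higher and 1 lower. Among all tested genes 11.7% were called higher and 10.8% lower. STAT5A, a STAT activated by many cytokine and hormone receptors, was lower, at 7.78, 7.85 and 7.43 with GDF11 and at 9.45, 9.34 and 8.76 in controls. It was 4.01 times higher in control reads, with a difference of -1.50 ± 0.21 (SE; adjusted p = 0.00145), and was called in all 19 alternatives. GAB2, a docking adaptor of receptor signalling, was higher by 0.94 ± 0.17 (adjusted p = 0.00502). STAT2, known for interferon signalling, was higher by 0.71 ± 0.18 (0.0198), and SHC1, an adaptor toward the Ras pathway, by 0.63 ± 0.17 (0.0289). The STAT2 call ended without any 1 of the GDF11 libraries, control 1 or control 2 (adjusted p of 0.0542 to 0.0838) and with RNA integrity as a covariate (0.48, adjusted p = 0.262). The SHC1 call ended without any 1 of the GDF11 libraries or control 1 (adjusted p of 0.0591 to 0.123). Without control 3, 7 of these genes were called higher and 2 lower, against 19.5% and 21.3% of all tested genes.

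Of 14 other inhibitors, all tested, 1 was higher, 1 was lower and 12 were not called. The shares over all tested genes were 11.7% higher and 10.8% lower. SOCS2, best known as an inhibitor of growth hormone signalling through STAT5, was at 8.09, 8.14 and 8.03 in GDF11 libraries and at 6.29, 6.10 and 6.53 in controls. Its mean in reads was 12.8 times the control mean, and the difference was 1.78 ± 0.14 (SE; adjusted p = 6.22e-05), called in all 19 alternatives. SOCS1, an inhibitor of interferon and other JAK signalling, was lower, at 8.52, 8.76 and 8.51 with GDF11 and 9.28, 9.52 and 9.11 in controls. SOCS1 differed by -0.71 ± 0.16 (adjusted p = 0.0150), and the call ended with RNA integrity as a covariate (-0.47, adjusted p = 0.242) and without GDF11 replicate 1 (0.0706) or 3 (0.0649). The members of the SOCS family that were called thus differed in direction, with SOCS3 and SOCS2 higher and SOCS1 lower.

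Acute-phase genes of hepatocytes were lower or not called: of 25, 20 were tested, 10 were lower and none was higher by limma (11 lower and 0 higher at an unadjusted p under 0.05), with a median difference of -0.51. Over all tested genes 10.8% were called lower and 11.7% higher, and 18.7% were lower and 18.5% higher at an unadjusted p under 0.05. With RNA integrity as a covariate, with library weights and after quantile normalisation, 1 gene of the list was called higher. The 3 fibrinogen chains were all lower. FGA read 13.96, 14.05 and 14.05 with GDF11 and 15.97, 16.54 and 16.17 in controls. FGG had 13.43, 13.49 and 13.70 in GDF11 libraries, against 15.44, 15.64 and 15.62 in controls. FGB had 11.70, 11.46 and 11.88 in GDF11 libraries, against 12.99, 13.21 and 13.08 in controls. In reads FGA, FGG and FGB were 4.68, 4.10 and 2.70 times higher in controls. SAA4, the constitutively expressed serum amyloid A and not one of its inducible forms, was lower by 1.59 ± 0.22 on the log2 scale (adjusted p = 0.00140), the iron hormone HAMP by 1.49 ± 0.17 (0.00048) and the haemoglobin-binding HP by 1.26 ± 0.18 (0.00142). The other genes called lower were CP, LRG1, FGL1 and C4BPA. CRP and APCS were at the lowest value in all 6 libraries, and SAA1, SAA2 and LBP were below the filter on low values. Of the genes not called, HPX and SERPINA3 had the largest positive differences, at 0.77 (adjusted p = 0.153) and 0.48 (0.176). HPX read 8.69, 10.04 and 8.55 in the GDF11 libraries. Beside these, the hepatocyte markers also moved: of 9 tested, 6 were lower and none higher by limma (8 lower and 0 higher at an unadjusted p under 0.05), with a median of -0.75. The markers' part in the acute-phase result was not tested.

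Of 15 other genes known to respond to STAT3, 14 were tested, 4 were higher and 4 lower, with a median of 0.11. For all tested genes the shares were 11.7% higher and 10.8% lower, with a median of 0.0056. JUNB, an AP-1 component that also responds to TGF-beta, was higher by 4.05 ± 0.14 (SE; adjusted p = 1.68e-06). TIMP1, an inhibitor of matrix proteases, was higher by 1.61 ± 0.24 (0.00192) and IER3, an early response gene, by 1.13 ± 0.17 (0.00211). The anti-apoptotic MCL1 was higher by 0.84 ± 0.24 (0.0334), and by 0.14 (adjusted p = 0.72) with RNA integrity as a covariate. Its call also ended without any 1 of the GDF11 libraries, control 1 or control 2 (adjusted p of 0.071 to 0.124). The repressor BCL6 differed by -0.99 ± 0.21 (0.0111) and the acute-phase transcription factor CEBPB by -0.76 ± 0.18 (0.0161). The CEBPB call ended with RNA integrity as a covariate (-0.45, adjusted p = 0.264) and without GDF11 replicate 1 (0.0634) or 3 (0.0674). The remaining called genes, CEBPD and PIM3, were lower.

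**Figure D5:**
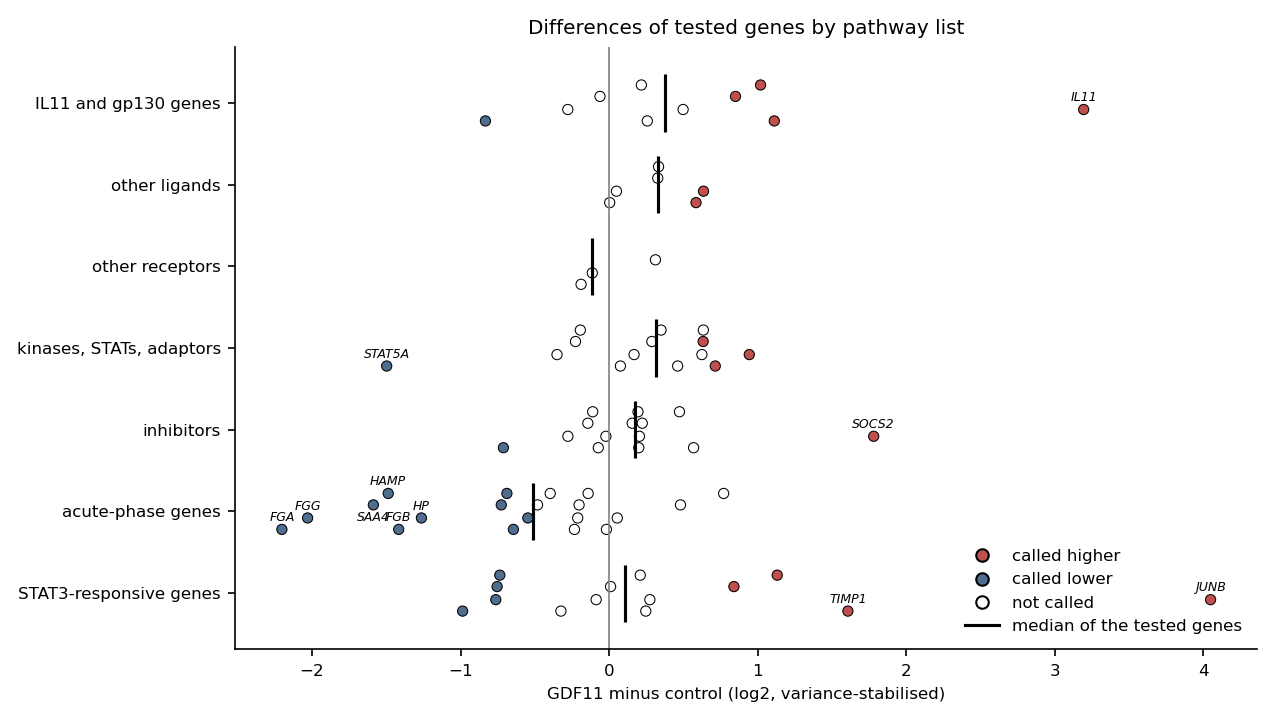
Difference, GDF11 minus control, on the deposited log2 scale for the genes of each pathway list, with called genes marked and the median of each list as a line. The acute-phase list has a median of -0.51 with 10 genes called lower and none higher, and the STAT3-responsive list a median of 0.11 with 4 called in each direction.

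Genes nearest to IL11 in pattern were taken as those with the smallest root mean square distance over the 6 libraries, each gene measured from its own control mean. For IL11 they included LEFTY2 at 0.111, COL1A1 at 0.155, HR at 0.159 and CTSZ at 0.175. LEFTY2 can share reads with its near copy LEFTY1, so its value is uncertain. For LIFR the nearest were ENSG00000274979 at 0.107, TGFBR3 at 0.123, MAN1A1 at 0.127, C2CD5 at 0.130 and KLB at 0.145. Control 3 was the highest library for LIFR and for each of these genes. The distance takes in that library as well as the difference between groups.

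As a check of the cells, all 9 hepatocyte and HepG2 markers passed the filter in these libraries, and ALB read 17.08 to 17.26 with GDF11 and 17.87 to 17.96 in controls. Of 5 leukocyte markers, PTPRC, CD3E and MS4A1 were at the lowest value in all libraries, and the list, mostly CD68 and CD14, summed to 2778 to 3347 reads with GDF11 and 2583 to 4153 in controls. The 4 endothelial markers summed to 13.2 to 32.9 reads with GDF11, against 53.1 to 97.3 in controls, VWF was called lower, and TEK was at the lowest value throughout. Of 6 fibroblast and stellate markers, DCN, LUM and COL1A2 were below the filter, COL1A1 and PDGFRB were higher by 3.22 and 0.92, and ACTA2 differed by -0.98. That list summed to 4348 to 5288 reads with GDF11 and 4122 to 6000 in controls.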

How the data were processed

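Total RNA of 6 HepG2 cultures was sequenced from directional libraries, per the labels' protocols. The deposited values are log2 values from a variance-stabilising transformation, made by the authors. The submitters' processing notes name Trimmomatic, Salmon 1.2.1, DESeq2 and GRCh38, whereas the protocol text names STAR and hg19, and neither states which of them made this file or how the counting treated strand. Depth per library is unknown: only 71.0 to 74.2% of low values fell within 0.01 of whole reads, so no count test was run. Intervals from reads would cover counting error only and are not given.

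Of the 60240 IDs, 58349 (96.9%) matched a symbol, and 26643 genes lay at the lowest value in all libraries. Genes with a mean at least 0.5 above that value (18723) were fitted with limma 3.58.1 in R 4.3.3 (trended variance prior), two-sided, with Benjamini-Hochberg adjustment over all of them and a threshold of 0.05. The fit was tested on simulated data. Leaving out a library kept the same genes. Alternatives covered the filter, scale, variance prior, library weights, normalisation, threshold, RNA integrity, each library left out and, chosen after seeing the data, removal of trends on transcript length and GC content (99.1% of tested genes matched). The members and lists were chosen with earlier results of these data known. All members were named, and of each list every called gene up to the 6 with the largest difference. Promoter windows come from RefSeq (GRCh38.p14), and exon overlaps from GENCODE on GRCh37, as lengths only. One gene of the treatment check and of the pattern comparison is not reported here.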

Additional observations from a re-analysis of the deposited data

How the results depend on the processing

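The 4 members called higher became 2 with RNA integrity as a covariate and ranged from 4 to 7 as each library was left out, with 7 without control 3. The 1 member called lower, LIFR, became 0 at an adjusted p of 0.01, with no filter on low values and without a mean trend in the variance prior, and ranged from 0 to 1 as libraries were left out. Of all tested genes 4202 were called, against 1870 with RNA integrity as a covariate, 1961 at an adjusted p of 0.01, 9027 with library weights and 2398 to 7640 as each library was left out. RNA integrity was 9.4 to 9.6 in GDF11 libraries and 9.6 to 9.9 in controls, so it moves with the treatment. Pairing by replicate number was left out of the main fit. The deviations of same-numbered libraries from their group means correlated at -0.088, 0.38 and 0.48 for replicates 1, 2 and 3. Differently numbered libraries were not compared, so these values do not settle whether the replicate numbers pair the libraries. With the replicate block 6453 genes, 5 members higher and 1 lower were called, and STAT3 passed at 0.50 (adjusted p = 0.0305). Removing the trend on transcript length and GC content, chosen after seeing the data, gave LIFR -1.07 (adjusted p = 0.0024), STAT3 0.39 (0.0442) and IL6ST 0.00. Acute-phase genes called lower numbered 6 to 11 over the alternatives and those called higher 0 to 1, the 1 being SERPINA3 with RNA integrity, library weights or quantile normalisation and HPX with the replicate block. Over the same alternatives, 1 to 8 of the other kinases, STATs and adaptors were called higher. Called higher were also 1 to 4 of the inhibitors and 0 to 3 of the other ligands. Of the STAT3-responsive genes 3 to 6 were called higher and 1 to 4 lower. The counts over all tested genes were 1149 to 4473 higher and 721 to 4554 lower. No called member changed sign, while IL11RA, IL6R, IL6ST and OSMR, which were not called, did in some settings. The cause of these changes was not tested. Depth is unknown, and the scale compresses differences of low genes such as IL11RA and SOCS3.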
